A study of Sus scrofa with 6 samples.

Results

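The 10 genes described here are parts of the Hippo pathway (TEAD4, YAP1, AMOT, LATS1 and LATS2) and transcription factors of the lineages that appear first in the embryo (CDX2, GATA3, GATA4, GATA6 and SOX17). They were taken by symbol from the series expression table of 30376 genes, and all 10 symbols stood in it on 1 row each. Each library was made from the polyadenylated RNA of about 300 wild-type porcine 4-cell embryos, which had been cultured for 4 days under 5% CO2 after the oocytes were activated by electric pulses (120 V, 60 µs). The 3 HT libraries came from embryos cultured at 41.5 °C and the 3 Control libraries from embryos cultured at 38.5 °C, and the series asks what heat does to the start of transcription from the embryonic genome. All 6 libraries share this electrical activation, and the labels describe no fertilization. The labels do not state whether libraries of a group came from separate cultures. The p-values therefore reflect only how far these libraries spread, and that spread may be technical.

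In the Hippo pathway, the kinases LATS1 and LATS2 phosphorylate the coactivator YAP1 and so keep it out of the nucleus. Unphosphorylated YAP1 enters the nucleus and activates genes together with DNA-binding TEAD factors. In mouse embryos, angiomotin (AMOT) activates the pathway in inner cells, while in polarized outer cells YAP1 and TEAD4 turn on Cdx2 and Gata3, which leads to trophectoderm, the precursor of the placenta. GATA6, GATA4 and SOX17 are markers of the hypoblast, the extraembryonic endoderm of the blastocyst, and a 4-cell embryo precedes both decisions.

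Total counts were 28114005 to 30079385 reads per library, and the factors by which TMM scaling adjusted these totals were 0.865 to 1.09, the lowest being that of Control library 1. Counts scaled to these adjusted totals (CPM) are given below, and TPM, the authors' values scaled by gene length, are used wherever levels of different genes are compared. The 10 listed markers of the oocyte and the cleavage embryo were all measured, with sums of 3059 to 3135 CPM in HT libraries and 3298 to 3937 CPM in Control libraries. Of the cumulus and granulosa cell markers, which bear on GATA4 and GATA6 since granulosa cells express both, 9 of 17 rows found had enough reads to be tested, and FSHR, INHA, FOXL2 and 1 of the 2 INHBA rows had 0 reads in every library. Their sum was 55.5 to 93.7 CPM in HT libraries and 46.7 to 84.1 CPM in Control libraries, most of it NR5A2, which embryos also express. In bulk samples, fewer cells of a type and less RNA per cell cannot be told apart.

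YAP1 and GATA6 stood well above the other 8 genes in every library. Averaged over all 6 libraries, YAP1 was at 23.4 ± 6.45 TPM and GATA6 at 20.6 ± 7.42 TPM (SD, n = 6), at the 83.3 and 81.8 percentiles of mean TPM among the tested genes. Their ranges overlapped, and YAP1 was the higher in 4 of 6 libraries. LATS1 came next at 5.25 ± 1.0 TPM, below GATA6 in 6 of 6 libraries without overlap of the ranges. GATA4 (3.13 ± 1.26 TPM), TEAD4 (3.03 ± 1.25 TPM) and AMOT (2.02 ± 0.511 TPM) had overlapping ranges, and GATA4 was above TEAD4 in 2 of 6 libraries. LATS2 was at 1.40 ± 0.650 TPM, below AMOT in 6 of 6 libraries, and GATA3 at 0.359 ± 0.193 TPM. SOX17 (0.123 ± 0.0743 TPM) and CDX2 (0.00777 ± 0.0190 TPM) were at the bottom.

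**Figure D1:**
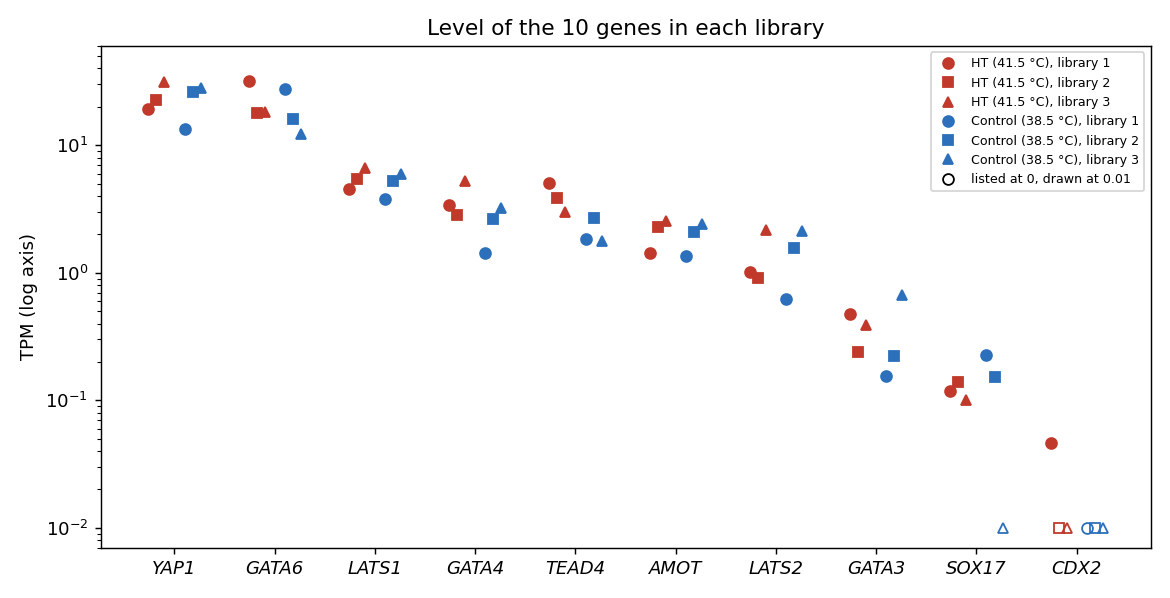
TPM (log axis) of each of the 10 genes in the 3 HT libraries (red, left) and the 3 Control libraries (blue, right), ordered by their mean, with circle, square and triangle for libraries 1, 2 and 3 and open symbols for genes listed at 0. YAP1 and GATA6 lie between 12.3 and 31.8 TPM in all libraries, and CDX2 is above 0 in 1 HT library.

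No member passed the test between temperatures. Of the 10 genes, 8 had enough reads to be tested, with 6 higher in HT libraries (47.5% of all tested genes were) and 2 lower, and 0 with an adjusted p below 0.05 (edgeR quasi-likelihood test, Benjamini-Hochberg adjustment over 16056 genes). Among all tested genes 0.0% passed as well, and the adjusted p of each of the 8 members was 0.999923. At an unadjusted p below 0.05 stood 1 member, TEAD4, which was higher in HT libraries, beside 1.85% of all tested genes in either direction and 0.99% in this one. DESeq2 called 0 members, against 0.0374% of all genes, with 1 member at an unadjusted p below 0.05, against 1.82%. The groups did not overlap in 1 of the 8 members, against 7.71% of all tested genes. The median log2 fold change of the 8 was 0.06, beside -0.02 over all tested genes. The 95% interval lay within a 4-fold change for all 8, and within a 2-fold change for 3 of them, YAP1, AMOT and LATS1, against 49.7% of all tested genes.

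TEAD4, the TEAD factor that the mouse trophectoderm requires, was higher in every HT library. It had 166, 124 and 93 reads in HT libraries 1, 2 and 3, against 64, 86 and 57 reads in the Control libraries. In CPM these were 5.68, 4.31 and 3.04 in HT libraries and 2.46, 2.96 and 1.89 in Control libraries. The lowest HT library lay just above the highest Control library, so the groups did not overlap, as was the case in this direction for 3.66% of all tested genes. The mean was 4.34 ± 1.32 CPM in HT libraries and 2.44 ± 0.537 CPM in Control libraries (SD, n = 3 each), a log2 fold change of 0.83 (standard error 0.32, 95% interval 0.10 to 1.56), or 1.78-fold. The edgeR unadjusted p was 0.0309 and the adjusted p 0.999923, so the difference did not pass. HT library 1 was the highest, and without it the log2 fold change was 0.59 (edgeR unadjusted p = 0.113). Without HT library 3 it was 1.06 (edgeR unadjusted p = 0.0116). TEAD4 has 1 annotated transcript and lies on the minus strand of chromosome 5 (67130392 to 67167579, Sscrofa11.1), where no other annotated gene overlaps it.

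TEAD1, a relative that binds the same partners, made up most of the TEAD transcripts. It took 63.9%, 64.4% and 74.6% of the summed TPM of TEAD1 to TEAD4 in HT libraries and 72.4%, 76.8% and 78.6% in Control libraries. The share of TEAD4 was 31.3%, 29.6% and 19.6% in HT libraries, against 22.0%, 18.2% and 15.4% in Control libraries, and these ranges overlapped. TEAD1 was at 68.3, 54.9 and 68.2 CPM in HT libraries and at 46.7, 52.9 and 50.6 CPM in Control libraries. In CPM it too was higher in every HT library, 1.27-fold (log2 fold change 0.35, 95% interval -0.08 to 0.78, edgeR unadjusted p = 0.10). In TPM the TEAD1 groups overlapped. It was at 10.29, 8.39 and 11.31 TPM in HT libraries and 6.04, 11.28 and 9.09 TPM in Control libraries. Control library 2 thus lay above HT libraries 1 and 2 in TPM, and the reason was not tested. TEAD2 was at 0.825 ± 0.0692 CPM in HT libraries and 0.908 ± 0.157 CPM in Control libraries. TEAD3, named after its values were seen, had 33 reads in all HT libraries and 16 in all Control libraries, too few to be tested. The summed TEAD level was 14.8 ± 1.57 TPM in HT libraries and 11.5 ± 3.17 TPM in Control libraries (SD, n = 3 each), with overlapping ranges.

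YAP1, the coactivator itself, was at nearly the same mean level at both temperatures. It was at 63.6, 74.8 and 93.6 CPM in HT libraries, against 52.7, 85.1 and 88.1 CPM in Control libraries. The groups overlapped, with the library numbered 1 the lowest in each. The mean was 77.3 ± 15.1 CPM in HT libraries and 75.3 ± 19.6 CPM in Control libraries (SD, n = 3 each), a log2 fold change of 0.04 with a 95% interval of -0.56 to 0.64, which leaves room for changes between 0.677-fold and 1.56-fold. YAP1 is on chromosome 9 (32811629 to 32924926, plus strand). WWTR1 (TAZ), the paralog of YAP1, was scarce at 0.819 ± 0.511 CPM in HT libraries and 0.597 ± 0.185 CPM in Control libraries, and YAP1 exceeded it in TPM by 47.4 to 283 times in HT libraries and 66.1 to 205 times in Control libraries.

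A long noncoding RNA gene of unassigned function, LOC102157672, starts on the opposite strand where YAP1 begins (chromosome 9, 32809519 to 32811632), sharing 4 bases with it. It averaged 11.2 ± 3.76 CPM in HT libraries and 12.1 ± 3.81 CPM in Control libraries (SD, n = 3 each). As with YAP1, library 1 was the lowest and library 3 the highest of each group. Its log2 fold change was -0.11 (95% interval -0.90 to 0.67), and the kit does not mark strand, so reads over the shared bases could belong to either gene.

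AMOT, the scaffold that binds YAP1 and activates LATS kinases, had the smallest fold change of the 8 tested members. Its values were 13.2, 22.3 and 22.7 CPM in HT libraries, against 16.2, 20.1 and 22.2 CPM in Control libraries. HT library 1 was the lowest of the 6, and the other 2 HT libraries were slightly above all Control libraries. The log2 fold change was -0.01 (95% interval -0.63 to 0.61). AMOT is on chromosome X (92581995 to 92647872, minus strand) and has 7 annotated transcripts.

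LATS1 had the narrowest interval of the 8 tested members. It was at 25.6, 30.6 and 33.7 CPM in HT libraries, against 25.3, 29.0 and 31.6 CPM in Control libraries, so the groups overlapped. The log2 fold change was 0.07 (95% interval -0.40 to 0.53). Its gene is on chromosome 1 (16274955 to 16320980, plus strand).

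LATS2, the paralogous kinase, varied more between libraries of one group than between temperatures. It was at 3.97, 3.54 and 7.65 CPM in HT libraries and at 2.92, 5.96 and 7.74 CPM in Control libraries. Library 3 was the highest in both groups, and HT library 2 was well below Control library 2. The log2 fold change was -0.13 (95% interval -1.13 to 0.86), and it was 0.18 without Control library 3 and -0.53 without HT library 3. LATS1 exceeded LATS2 in TPM in every library, by 3.04 to 5.99 times in HT libraries and 2.81 to 6.06 times in Control libraries. LATS2 is on chromosome 11 (1225523 to 1265970, minus strand).

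**Figure D2:**
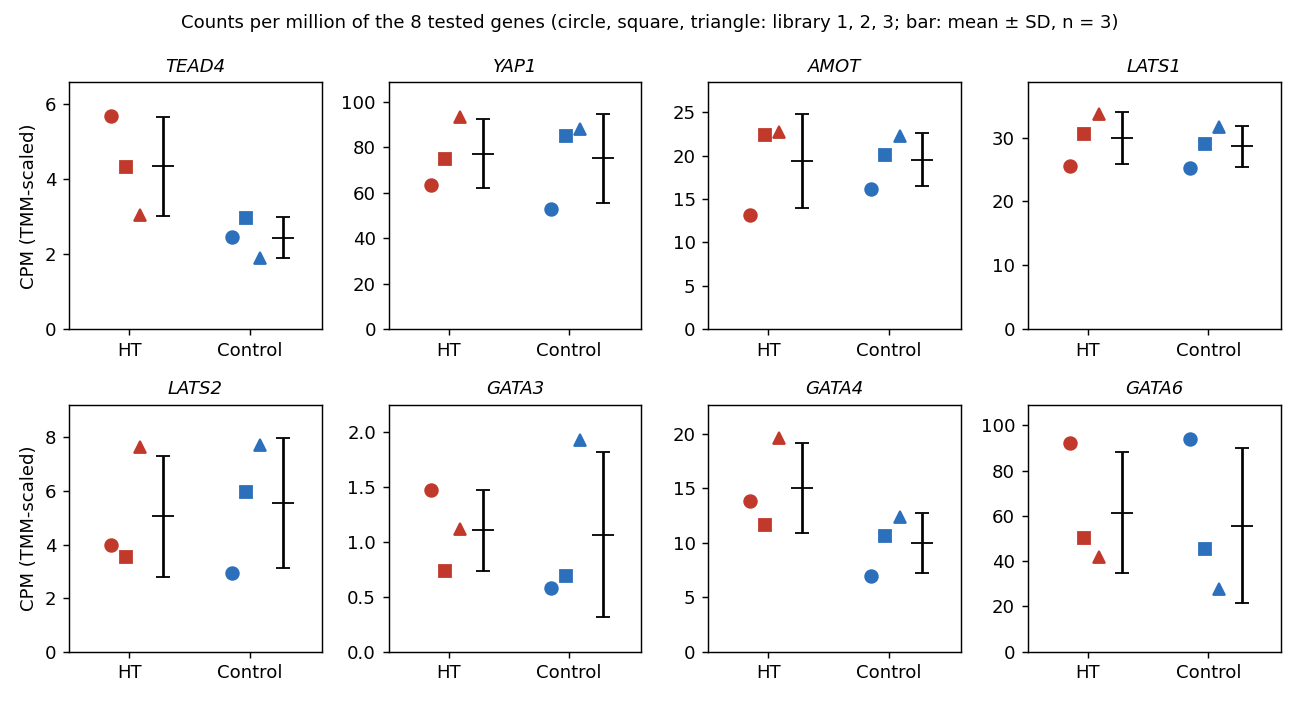
CPM (axes from 0) of the 8 tested genes in the 3 HT libraries (red, left) and the 3 Control libraries (blue, right), with circle, square and triangle for libraries 1, 2 and 3 and bars for mean ± SD. TEAD4 alone has no overlap between the groups, while in GATA6 both libraries numbered 1 stand above 90 CPM and the other 4 lie between 27.8 and 50.4 CPM.

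CDX2, the transcription factor of trophectoderm identity, was essentially not detected at the 4-cell stage. HT library 1 had 2 reads, and HT libraries 2 and 3 and all 3 Control libraries had 0. A count of 0 allows up to 3 reads, or 0.0981 to 0.104 CPM in HT libraries and 0.0996 to 0.115 CPM in Control libraries, counting error only. The 2 reads are within that limit, so no difference was detectable at this depth. The gene is on chromosome 11 (5339727 to 5346081, minus strand).

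GATA3, which acts beside CDX2 in mouse trophectoderm, was low but present in every library. It had 43, 21 and 34 reads in HT libraries, against 15, 20 and 58 reads in Control libraries. Control library 3 was the highest and Control library 1 the lowest of all 6, so the Control group enclosed the HT group. The log2 fold change was 0.05 with a wide 95% interval of -1.17 to 1.26. It was 0.81 without Control library 3 and -0.25 without Control library 1. GATA3 is on chromosome 10 (63367684 to 63397977, minus strand).

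GATA4, a zinc-finger factor of the hypoblast and of gonadal somatic cells, had the second largest difference among the tested members. It had 405, 335 and 599 reads in HT libraries and 180, 308 and 373 in Control libraries. These were 13.9, 11.6 and 19.6 CPM in HT libraries, against 6.92, 10.6 and 12.4 CPM in Control libraries. HT library 2 lay below Control library 3, so the groups overlapped. The mean was 15.0 ± 4.10 CPM in HT libraries and 9.98 ± 2.79 CPM in Control libraries (SD, n = 3 each), 1.51-fold with a log2 fold change of 0.59 (standard error 0.30, 95% interval -0.10 to 1.28, edgeR unadjusted p = 0.0854, adjusted p = 0.999923). Without Control library 1, the lowest, the log2 fold change was 0.38, as it was without HT library 3, the highest. Among the 9 tested cumulus and granulosa marker rows, 5 were higher, 4 were lower and 0 were called, and their log2 fold changes had a median of 0.09. KRT19 and FST, named after their values were seen, were the 2 of these rows without overlap. Both were higher in every HT library, as were 3.66% of all tested genes. KRT19 was at 0.620 ± 0.133 CPM in HT libraries and 0.273 ± 0.127 CPM in Control libraries. FST was at 4.00 ± 0.739 CPM in HT libraries and 2.95 ± 0.137 CPM in Control libraries (SD, n = 3 each), while FSHR, INHA and FOXL2 were at 0 reads. The part of these markers in the GATA4 values was not tested. GATA4 is on chromosome 14 (14858470 to 14938156, plus strand).

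GATA6, the earliest hypoblast factor in the mouse, was close to YAP1 in TPM and spread widely between libraries of one group. It was at 92.1, 50.4 and 41.8 CPM in HT libraries, against 93.9, 45.6 and 27.8 CPM in Control libraries. Library 1 was the highest and library 3 the lowest in both groups, by 2.20 times between HT libraries 1 and 3 and 3.38 times between Control libraries 1 and 3. The difference between temperatures was small beside that: a log2 fold change of 0.14 (95% interval -0.94 to 1.22). Its direction turned without HT library 1 (-0.28) and without Control library 3 (-0.15), and it was 0.74 without Control library 1 (edgeR unadjusted p = 0.0854). GATA6 is on chromosome 6 (107282709 to 107314725, plus strand), where LOC100525229 overlaps its first 47 bases with 67 reads over all 6 libraries, 34 in HT and 33 in Control.

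SOX17, a factor of definitive and extraembryonic endoderm, was at the limit of detection. It had 7, 8 and 5 reads in HT libraries and 13, 8 and 0 in Control libraries, too few to be tested. The sums of 20 reads in HT and 21 in Control were nearly equal. It is on chromosome 4 (76854218 to 76857143, minus strand).

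**Figure D3:**
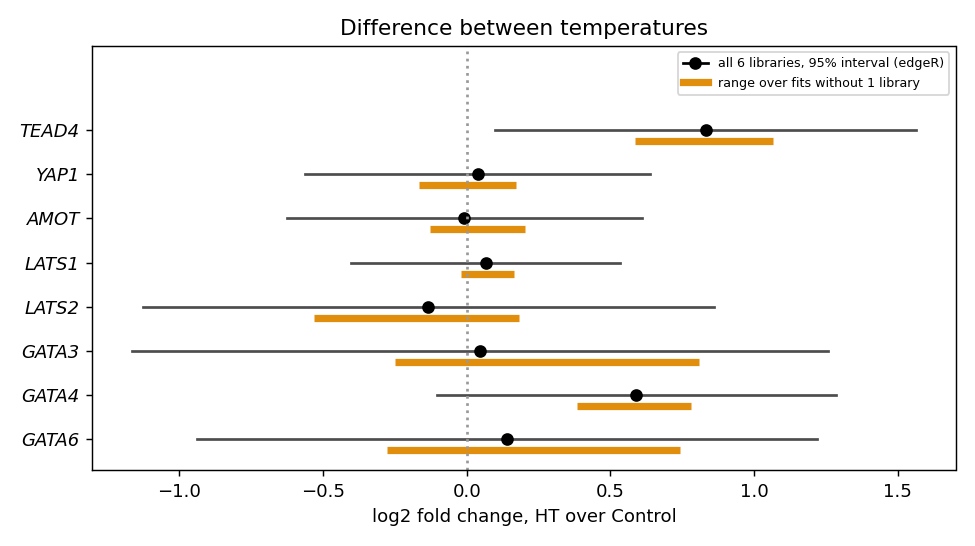
Log2 fold change, HT over Control, of the 8 tested genes with 95% intervals from edgeR (black) and the range over the 6 fits that each leave out 1 library (orange). TEAD4 (0.59 to 1.06) and GATA4 (0.38 to 0.78) stay above 0 in all 6 fits, whereas the ranges of the other 6 genes include 0.

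The same library number was the highest in both groups in 6 of the 8 tested members. In 5 of the 8 tested members (YAP1, AMOT, LATS1, LATS2 and GATA4) the library numbered 3 was the highest of both groups, and in GATA6 the library numbered 1 was. Over all tested genes these shares were 27.6% for library 3 and 26.7% for library 1, so both patterns were common. The labels do not say what the replicate number stands for, and its part in the member values was not tested. Over the 6 libraries the Pearson correlation of log2 CPM with GATA6 was -0.89 for YAP1, -0.86 for AMOT, -0.88 for LATS1, -0.84 for LATS2 and -0.43 for GATA4, a description of 6 points that share library preparation and depth, 4 of them from the libraries numbered 1 and 3.

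**Figure D4:**
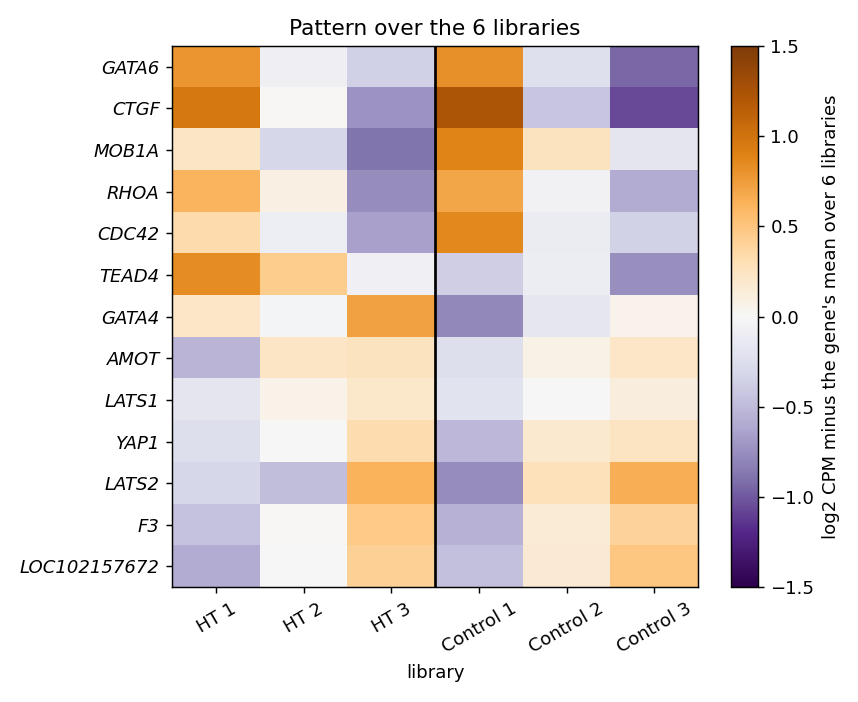
Log2 CPM minus the gene's own mean over the 6 libraries, in colour, for HT libraries (left of the line) and Control libraries (right), for 7 of the 8 tested members and for 6 other genes chosen after their values were seen. GATA6 and CTGF are highest in library 1 of both groups, and YAP1, LATS2, F3 and LOC102157672 are highest in library 3 of both.

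The genes whose pattern was most like a member's were found among genes of at least 5 CPM by Pearson correlation of log2 CPM over the same 6 libraries. They were CTNNA1 (r = 0.997) and MFSD4A (0.995) for YAP1, GCG (0.994) and SORCS3 (0.992) for AMOT, and RBM17 (0.998) and RPP21 (0.996) for LATS1. LATS2 was most like JADE1 (0.995) and SLC17A5 (0.994), GATA4 most like KHSRP (0.997) and BAIAP2 (0.997), and GATA6 most like PTCD3 (0.999) and KLF3 (0.997). PTCD3, with 484.8 reads on average per library, is uncertain, since IMMT and POLR1A, both with reads, overlap it. Of the 6835 candidates, the share with a correlation above 0.95 was 3.95% for YAP1, 1.32% for AMOT, 3.09% for LATS1, 1.38% for LATS2, 1.01% for GATA4 and 3.57% for GATA6. CTNNA1 encodes alpha-catenin of adherens junctions, and was at 27.6, 30.9 and 38.5 CPM in HT libraries and 23.0, 34.5 and 37.1 CPM in Control libraries.

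Upstream of LATS, the kinase cascade and its regulators also showed no called difference. Of 21 listed genes 18 were tested, with 4 higher, 14 lower and 0 called, and a median log2 fold change of -0.06. The most abundant were TAOK3, a kinase that activates the MST kinases, at 107 ± 5.71 CPM in HT libraries and 106 ± 7.31 CPM in Control libraries, and FRMD6, an upstream FERM-domain activator, at 95.7 ± 15.9 CPM in HT libraries and 98.4 ± 11.0 CPM in Control libraries (SD, n = 3 each). STK3 (MST2), the kinase that phosphorylates LATS, was at 10.8, 12.3 and 12.1 CPM in HT libraries and 14.7, 12.7 and 14.5 CPM in Control libraries, the only tested gene of this list without overlap, against 4.05% of all tested genes in this direction (log2 fold change -0.25, 95% interval -0.71 to 0.21). NF2 (merlin), which recruits LATS to the membrane, was at 2.53, 3.20 and 3.86 CPM in HT libraries and 1.46, 1.52 and 2.72 CPM in Control libraries (log2 fold change 0.75, edgeR unadjusted p = 0.0567). The atypical cadherin FAT4 was at 1.13 ± 0.273 CPM in HT libraries and 2.08 ± 0.607 CPM in Control libraries (log2 fold change -0.88, edgeR unadjusted p = 0.0344, adjusted p = 0.999923). It was the 1 tested gene of this list with an unadjusted p below 0.05, against 1.85% of all tested genes. FAT4 is uncertain, since LOC106504728, a gene with 4585 reads on average per library, overlaps it.

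Among effectors and turnover factors 15 of 16 found genes were tested, 8 higher, 7 lower and 0 called, with a median log2 fold change of 0.06. YWHAB, a 14-3-3 protein of the family that holds phosphorylated YAP1 in the cytoplasm, was the most abundant at 335 ± 20.3 CPM in HT libraries and 351 ± 63.0 CPM in Control libraries, followed in TPM by YWHAQ at 145 ± 10.9 CPM in HT libraries and 139 ± 6.74 CPM in Control libraries (SD, n = 3 each). Besides TEAD1, YWHAH, another 14-3-3 gene, was higher in CPM in every HT library. It was at 57.1, 53.2 and 59.4 CPM in HT libraries against 39.4, 49.9 and 51.2 CPM in Control libraries (log2 fold change 0.27, 95% interval -0.17 to 0.72). These were 2 of the 15 tested genes, against 3.66% of all tested genes in this direction. In TPM the groups of both genes overlapped. For YWHAH, HT library 2 was at 37.8 TPM and Control library 3 at 38.5 TPM.

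Transcripts known as YAP/TEAD targets in other cells showed no difference between temperatures that passed, with 5 of 9 rows found tested, LATS2 aside, 2 higher, 3 lower and 0 called. CTGF, a secreted matricellular protein and a widely used YAP target, was at 171, 88.4 and 53.4 CPM in HT libraries and 205, 65.4 and 42.3 CPM in Control libraries. Like GATA6, it was highest in library 1 of each group, and its log2 fold change of 0.00 had a 95% interval of -1.42 to 1.43. F3, the coagulation initiator tissue factor, followed the opposite order, at 72.4, 100 and 137 CPM in HT libraries and 67.4, 109 and 130 CPM in Control libraries (log2 fold change 0.01). CYR61, the other classical target, had only 60 reads in all HT libraries and 64 in all Control libraries, and it is uncertain because ZNHIT6, with 3678 reads on average per library, overlaps it. NUAK2, a kinase and YAP target named after its values were seen, had 0 reads in every HT library and 4, 11 and 5 reads in the Control libraries, too few to be tested. TGFB2 was at 1.52 ± 0.765 CPM in HT libraries and 1.6 ± 0.155 CPM in Control libraries.

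Polarity factors, which in mouse embryos decide where the pathway is silenced, had 9 of 18 tested genes higher, 9 lower and 0 called, and a median log2 fold change of 0.01. CDC42 and RHOA, small GTPases that organize the actin cortex, were the most abundant of this list. CDC42 was at 354, 266 and 179 CPM in HT libraries and 510, 261 and 222 CPM in Control libraries, and RHOA at 220, 153 and 85.1 CPM in HT libraries and 232, 138 and 95.3 CPM in Control libraries. Both were highest in library 1 of each group, and both 95% intervals included 0 (log2 fold change -0.32, -1.17 to 0.54, for CDC42 and -0.02, -0.98 to 0.93, for RHOA). PRKCI, an atypical protein kinase C of the apical complex, was at 22.2 ± 3.25 CPM in HT libraries and 25.8 ± 2.12 CPM in Control libraries, and MARK2, a basolateral kinase, at 1.44 ± 0.298 CPM in HT libraries and 1.09 ± 0.416 CPM in Control libraries (SD, n = 3 each).

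Of 14 other trophectoderm genes, 6 had, like CDX2, too few reads to be tested. Among the other 8, 7 were higher, 1 was lower and 0 were called, with a median log2 fold change of 0.10. TFAP2C, an AP-2 factor also present in the mouse oocyte and early embryo, was at 51.4 ± 7.43 CPM in HT libraries and 48.8 ± 8.45 CPM in Control libraries, and KLF5 at 5.37 ± 0.650 CPM in HT libraries and 5.27 ± 1.15 CPM in Control libraries (SD, n = 3 each). ID2, an inhibitor of helix-loop-helix factors, was at 4.38, 6.84 and 5.89 CPM in HT libraries and 4.15, 3.0 and 4.52 CPM in Control libraries, an overlap through HT library 1 alone (log2 fold change 0.55, edgeR unadjusted p = 0.0844). ARID3A was at 0.583 ± 0.201 CPM in HT libraries and 0.307 ± 0.290 CPM in Control libraries. KRT8, a keratin of the trophectoderm epithelium named after its values were seen, was untested. It had 2, 10 and 9 reads in HT libraries and 0, 4 and 5 in Control libraries, an overlap. KRT18, also named afterwards but tested, had a log2 fold change of 0.13 (95% interval -2.28 to 2.55). GATA2, a relative of GATA3 likewise named afterwards and untested, had 7, 5 and 5 reads in HT libraries and 3, 0 and 0 in Control libraries. The other untested genes of this list, beside TEAD3, were nearly level. TFAP2A had 25 reads in all HT libraries and 27 in all Control libraries, HAND1 27 and 25, and DLX3 2 and 3.

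Hypoblast genes beside GATA4, GATA6 and SOX17 had 8 of 15 tested, 5 higher, 3 lower and 0 called, with a median log2 fold change of 0.07. LAMB1, a laminin chain of basement membranes, was at 40.3, 41.2 and 65.0 CPM in HT libraries and 39.6, 48.3 and 62.1 CPM in Control libraries. PDGFRA, the receptor that marks hypoblast in the mouse, was at 2.02 ± 0.601 CPM in HT libraries and 2.68 ± 0.675 CPM in Control libraries. FOXA2, named after its values were seen, had 0, 5 and 0 reads in HT libraries and 8, 7 and 0 in Control libraries, an overlap. The other untested genes of this list, likewise named afterwards, were at least as high in HT libraries. FGFR1 had 24 reads in all HT libraries and 9 in all Control libraries, LAMA1 10 and 7, and HNF4A 5 and 3. SPARC had 5 and 0, COL4A2 3 and 0, and GATA5 0 reads in every library.

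Among relatives of the GATA, SOX and CDX members 4 of 10 were tested, 3 higher, 1 lower and 0 called. GATA1, GATA5 and CDX4 had 0 reads in every library. SOX15 was higher in every HT library, at 5.44, 4.00 and 2.19 CPM against 1.96, 2.1 and 1.83 CPM in Control libraries (log2 fold change 0.98, 95% interval 0.16 to 1.80, edgeR unadjusted p = 0.0246, adjusted p = 0.999923). It alone of the 4 tested genes lacked overlap and had an unadjusted p below 0.05. In this direction 3.66% of all tested genes lacked overlap and 0.99% had such a p. SOX15 overlaps MPDU1, which had 52.8 reads on average per library beside 84.7 for SOX15, so its value is uncertain. SOX7, an endoderm relative of SOX17, was at 3.65 ± 0.751 CPM in HT libraries and 3.24 ± 2.14 CPM in Control libraries, and SOX21 at 1.0 ± 0.386 CPM in HT libraries and 1.62 ± 0.835 CPM in Control libraries (SD, n = 3 each).

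**Figure D5:**
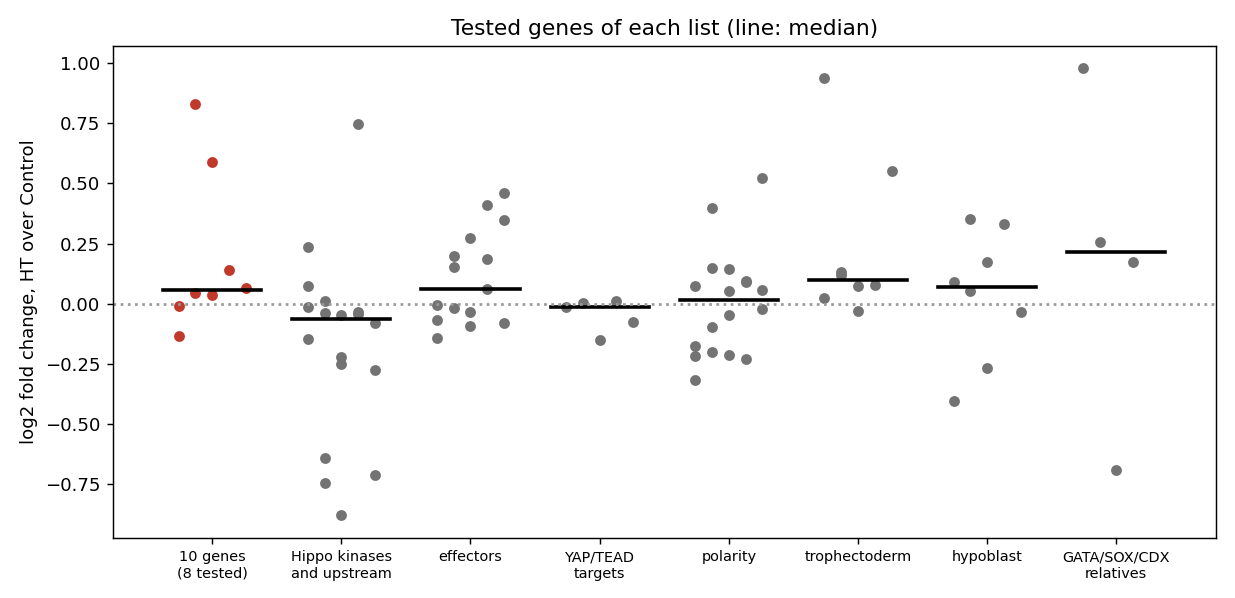
Log2 fold change, HT over Control, of each tested gene in the 10-gene set (red) and in the 7 wider lists (grey), 1 point a gene, with the median as a line. Medians lie between -0.06 and 0.22, and single genes between -0.88 and 0.98.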

How the data were processed

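The deposited series table holds whole-number read counts of each gene with no normalization, per the file headers, beside FPKM (fragments scaled to gene length and depth) and TPM values that the authors computed. The tables of single libraries also hold a coverage signal per gene that the authors deposited and that was not used for any result. Per the submitters' processing notes, the genome build was Sscrofa11.1, and the tools named are StringTie 2.1.3b, HISAT2 2.1.0, HISAT, Trimmomatic 0.38 and Bowtie2. Those notes give the tools no roles, so which of them made the counts is unknown here. The SMART-Seq v4 kit does not mark strand. Columns were matched to libraries by their names, and 99.4% to 99.5% of FPKM values were equal within 1e-05 to those of the library's own table. Positions come from a RefSeq gene table of Sscrofa11.1, where 30352 of 30376 genes matched.

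Counts were tested with edgeR 4.0.16 (R 4.3.3; quasi-likelihood test with TMM and temperature group alone, on the 16056 genes that passed filterByExpr). DESeq2 1.42.0, limma 3.58.1 on log2(value + 1) of FPKM and TPM, other scalings, no filter, a replicate block and leaving out each library were alternatives. The 24 rows without a symbol stayed in the fit. The 95% intervals of fold changes come from the edgeR fit and include the spread between libraries, whereas upper limits for counts of 0 cover counting error only.

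The members and lists were chosen with earlier results of these data known. All 10 members are named. In each wider list the 2 most abundant genes by TPM, the 2 with the smallest p and those without overlap between groups are named, and for members of at least 5 CPM the 2 genes most like them. One gene that this rule names is not reported here.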

Additional observations from a re-analysis of the deposited data

How the results depend on the processing

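Under all 13 alternatives 0 members were called, and 0 genes of the 7 wider lists. Over all genes the count was 0 with edgeR, 3 with the replicate block, 6 with DESeq2 and 1 without the low-count filter, and the cause was not tested. The labels state no pairing of libraries, so the replicate block was used only as an alternative. For each tested gene, a library's deviation was its log2 CPM minus the mean of its own group. The deviations of same-numbered libraries correlated at 0.48, 0.01 and 0.54 for numbers 1, 2 and 3. HT library 1 correlated with Control library 3 at -0.48, and HT library 3 with Control library 1 at -0.52. Deviations cancel within a group, so a positive correlation with 1 library brings negative ones with others, and these values are not independent. HT library 2 correlated best with Control library 1 (0.13). With the block 1485 of 16056 genes had an unadjusted p below 0.05, against 297 without it. Under the block TEAD4 was at 0.81 (edgeR unadjusted p = 0.00525, adjusted p = 0.411) and GATA4 at 0.60 (unadjusted p = 0.0107, adjusted p = 0.454). TEAD4 and GATA4 kept their direction under all 13 alternatives. The direction of AMOT turned with library totals only (0.078) and with limma on FPKM (0.054) and TPM (0.060). Leaving out 1 library at a time gave log2 fold changes of -0.17 to 0.17 for YAP1, -0.13 to 0.20 for AMOT, -0.019 to 0.16 for LATS1, -0.53 to 0.18 for LATS2, -0.25 to 0.81 for GATA3 and -0.28 to 0.74 for GATA6. Depth limits CDX2, SOX17 and GATA3, of which the summed reads of a group were at most 98.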

Other observations

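GATA6 was the member whose reads and FPKM differed most. After scaling over 3737 genes with a single annotated transcript, its reads per unit of FPKM were 106%, 104% and 92.3% of its own mean in HT libraries and 106%, 106% and 88.2% in Control libraries, so libraries 3 of both groups were the lowest. The highest value was 1.20 times the lowest, a range exceeded by 16.4% of 5826 genes with several transcripts. AMOT had a range of 1.10 times, and LATS2 of 1.02 times. GATA6 has 5 annotated transcripts, and which of them carried the reads was not analysed here.

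MOB1A, the adaptor of LATS kinases, named here after its values were seen, was at 54.1, 37.0 and 24.9 CPM in HT libraries and 85.1, 54.9 and 40.7 CPM in Control libraries. Library 1 was the highest of both groups, 2.17 and 2.09 times library 3, and the log2 fold change was -0.64 (95% interval -1.47 to 0.19, edgeR unadjusted p = 0.113). With the replicate block the edgeR unadjusted p was 0.000429 and the adjusted p 0.209, so MOB1A did not pass there either.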
